A study of Mus musculus with 10 samples.

Results

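Tubulin genes encode the alpha and beta subunits that pair into the building block of microtubules. The 9 members described here were chosen by name: the beta-tubulin genes Tubb4a, Tubb2a, Tubb2b, Tubb3, Tubb5 and Tubb6 and the alpha-tubulin genes Tuba1a, Tuba1b and Tuba4a. They were represented by 15 of the 25697 probes on the array, and are 9 of the 16593 genes with a symbol. Gene expression was read on 10 Illumina bead arrays from cells of C57BL/6 mice, in 5 groups of 2 arrays. The groups were induced oligodendrocyte progenitor cells (iOPC) derived from pericytes and kept for 5, 15 or 25 passages, primary oligodendrocyte progenitor cells (OPC), and the pericytes (PC), the contractile cells that wrap small blood vessels. The iOPC samples are titled PC2FiOPC with their passage, and the labels name no agent or transgene by which the cells were induced. The OPC arrays are titled as progenitors, whereas their cell type label and the design text say oligodendrocyte.

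Microtubules carry cargo, hold cell shape and pull chromosomes apart, and vertebrate cells build them from several near-identical isotypes whose proteins differ mainly in their acidic tails. Nervous tissue uses a mix that differs from other tissues: Tubb3 and Tubb2b are known from neurons, Tubb4a from neurons and oligodendrocytes, and Tubb5, Tubb6 and Tuba1b from a wide range of cells. Oligodendrocytes depend on microtubules to extend processes and to carry RNA and protein into the myelin sheath, and changes in human TUBB4A cause a leukodystrophy with too little myelin.

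Each array detected between 45.7% and 49.2% of its probes (detection p under 0.01), and its mean signal lay between 268 and 388. The measurements come as a table of signals, which was background-corrected and quantile-normalized here, and as a table of the authors' own normalized log2 values, called the signal table and the value table below. Columns with the same heading did not hold the same profile in both. Over 9403 probes detected on every array, the mean Pearson r between like-named columns, taken across probes, was 0.982 for PC, 0.878 for iOPC passage 5, 0.843 for passage 15, 0.866 for passage 25 and 0.847 for OPC. The signal columns headed iOPC passage 15 reached 0.981 with the value columns headed OPC. No column was moved, so every result is given for each table by its own headings, and which table has the right heading cannot be told apart. Replicates of the signal table correlated at r of 0.995 to 0.997. For the value table this ran between 0.908 (iOPC passage 5) and 0.995 (OPC). Of the marker lists for other cell types, 0 of the 4 microglial genes with a probe were detected on any array, and of 4 endothelial genes 1 was detected, on PC replicate 1. Of 5 astrocyte genes 4 were detected at passage 15 and 2 to 3 on the other iOPC and the OPC arrays, against 1 to 2 in PC. Of the OPC markers with a probe, 4 to 6 of 6 were detected on the iOPC and OPC arrays, against 2 on the PC arrays. Detection p-values belong to the signal table and its headings, under which Olig2 was detected on 1 OPC array and Nkx2-2 on 0. In the value table both averaged highest in OPC, Olig2 at 8.28 against 1.90 in PC and Nkx2-2 at 11.23 against 1.61. Of 8 pericyte markers, 2 to 3 were detected on the iOPC arrays and 2 to 5 on the OPC arrays, against 5 on each PC array. Pdgfrb, Acta2 and Anpep averaged highest in PC in both tables. Mcam and Notch3 did not, and Mcam averaged 11.25 in OPC, against 6.00 in PC in the signal table. Rgs5, Des and Kcnj8 were not detected in PC.

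Each gene was read from its brightest probe that passed a detection p under 0.01 on at least 2 arrays. That filter kept 7 of the 9 members and 9778 genes in all. Changes are log2 differences of group means with the standard error (SE) of the fit, and a change was called at an adjusted p under 0.05 (limma, Benjamini-Hochberg over the 9778 genes, two-sided, each group n = 2). The labels do not say whether replicates were separate cultures, so p-values measure no more than the spread from array to array, and the number of arrays limits the precision. In these bulk samples, fewer cells of a type and less RNA per cell cannot be told apart.

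Compared with pericytes, 2 beta-tubulin genes were higher and 1 was lower in every comparison of both tables. Tubb4a and Tubb2b were higher in 8 of 8 comparisons with PC (iOPC at 3 passages and OPC, in 2 tables). Tubb6 was lower in 8 of 8 and Tubb2a higher in 7. The comparisons of a table share its 2 PC arrays, and both tables come from the same 10 samples, so these are not separate tests. In single comparisons 29% to 40.3% of all genes were called higher and 24.1% to 35.7% lower. The share of all genes called alike in all 8 was not computed. Tubb5, Tuba1a and Tuba1b changed by no more than 0.66 log2 units wherever they were called, under quantile normalization of the signals.

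Tubb4a, the beta isotype linked to myelin, had raw signals of 125 and 129 at passage 5, 554 and 553 at passage 15, 3420 and 2883 at passage 25, and 266 and 264 in OPC, against 112 and 107 in PC. The PC signals were not above background (detection p 0.0702 and 0.208), while the other 8 arrays detected the probe. On the normalized log2 scale of the signal table Tubb4a stood at 5.22 and 5.35 at passage 5, 8.61 and 8.64 at passage 15, 11.92 and 11.85 at passage 25, and 7.53 and 7.28 in OPC, against 4.54 and 4.39 in PC. Values therefore climbed with passage, and no group overlapped another. Because PC was below background, only a bound can be given, set by the higher of the PC value and the lowest value of a detected probe on each array: at least 1.27-fold higher at passage 5, at least 12.9-fold at passage 15, at least 123-fold at passage 25 and at least 5.51-fold in OPC, the adjusted p-values being at most 3.99e-05. Such bounds, here and below, hold only for the background correction and normalization used here. Without background correction the log2 changes of Tubb4a were smaller, at 0.23 at passage 5, 2.18 at passage 15 and 1.27 in OPC. At passage 25 the lowest log2 change under any alternative was 5.19.

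Tubb4a in the value table stood at 11.55 and 10.94 at passage 5, 11.32 and 11.06 at passage 15, 11.82 and 11.75 at passage 25, and 9.12 and 8.97 in OPC, against 2.22 and 2.75 in PC. All 3 passages were near each other there, above OPC and far above PC. Each was called higher than PC (adjusted p at most 4.55e-07). No size is given for that difference, since PC was not above background and the value table carries no detection p of its own. In order of level, the signal table gives passage 25, passage 15, OPC, passage 5 and PC with every neighbouring pair called. The value table gives passage 25, then passages 5 and 15, which were not called different from passage 25 or each other, then OPC, then PC.

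Myelin markers as a list, like Tubb4a, had their highest summed signal and mean log2 value at passage 25 and their lowest in PC. In the value table Mobp and Mog departed from this: Mobp averaged 1.79 at passage 25 and 2.40 in OPC, against 1.89 in PC, and Mog averaged 1.80 in OPC, against 2.30 in PC. Of 6 listed genes 5 had a probe (among them Mbp, Mag and Mog, components of the myelin sheath), and 5 were detected on each passage 25 array, 2 to 3 at passage 5, 2 at passage 15 and 3 to 4 in OPC, against 1 in PC. Their summed signal was 2946 to 3016 at passage 5, 1723 to 1797 at passage 15, 12427 to 14799 at passage 25 and 2409 to 2695 in OPC, against 610 to 616 in PC. Mbp, Mag and Mog were not detected in PC. Their mean log2 value in the value table was 7.90 to 7.96 at passage 5, 8.89 to 9.02 at passage 15, 9.46 to 9.60 at passage 25 and 4.66 to 4.74 in OPC, against 3.12 to 3.21 in PC. Their part in the Tubb4a result was not tested.

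The sequences before the transcription start of a strongly changed gene, Tubb4a, of the weakly expressed Tubb2a and of the bright Tubb5 are shown because these 3 beta genes behaved differently against PC. Each is the 250 bases upstream of the start from RefSeq (GRCm38.p6, minus strand, 5′ to 3′), at chr17:57087601-57087850 for Tubb4a, chr13:34078009-34078258 for Tubb2a and chr17:35838302-35838551 for Tubb5. Capitals mark matches, on either strand, to TATANA (which includes the TATA box TATAAA), to the cyclic AMP response element core TGACGT and to the CCAAT box.
Tubb4a: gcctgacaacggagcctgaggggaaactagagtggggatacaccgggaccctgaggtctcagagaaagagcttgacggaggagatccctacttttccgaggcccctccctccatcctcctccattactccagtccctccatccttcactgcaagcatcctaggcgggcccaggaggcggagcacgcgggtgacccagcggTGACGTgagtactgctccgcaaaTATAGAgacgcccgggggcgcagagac
Tubb2a: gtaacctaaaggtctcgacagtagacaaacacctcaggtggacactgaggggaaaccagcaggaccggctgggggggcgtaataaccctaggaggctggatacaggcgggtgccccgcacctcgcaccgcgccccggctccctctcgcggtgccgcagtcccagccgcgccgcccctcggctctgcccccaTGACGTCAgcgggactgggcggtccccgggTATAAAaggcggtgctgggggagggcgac
Tubb5: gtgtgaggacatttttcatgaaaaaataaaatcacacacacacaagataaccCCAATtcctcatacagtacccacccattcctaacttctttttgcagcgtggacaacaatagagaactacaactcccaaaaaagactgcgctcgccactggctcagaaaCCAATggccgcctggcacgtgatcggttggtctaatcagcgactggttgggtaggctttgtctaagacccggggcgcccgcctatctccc
The Tubb4a window held TATAGA, a match to TATANA, 27 bases before the start and TGACGT 50 bases before it. Tubb2a held TATAAA 29 bases before the start and overlapping matches to TGACGT on both strands, 59 and 57 bases before it. Tubb5 held neither, and had CCAAT 198 and 90 bases before its start. Of 32851 promoters of the same length, 12.4% held TATAAA, 22.6% TATANA, 6.47% TGACGT and 33.9% CCAAT. Of the 7 members matched in the RefSeq table, Tubb4a and Tubb2a held TGACGT. The motifs were picked after the sequences had been read, and a match is a description of letters only.

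**Figure D1:**
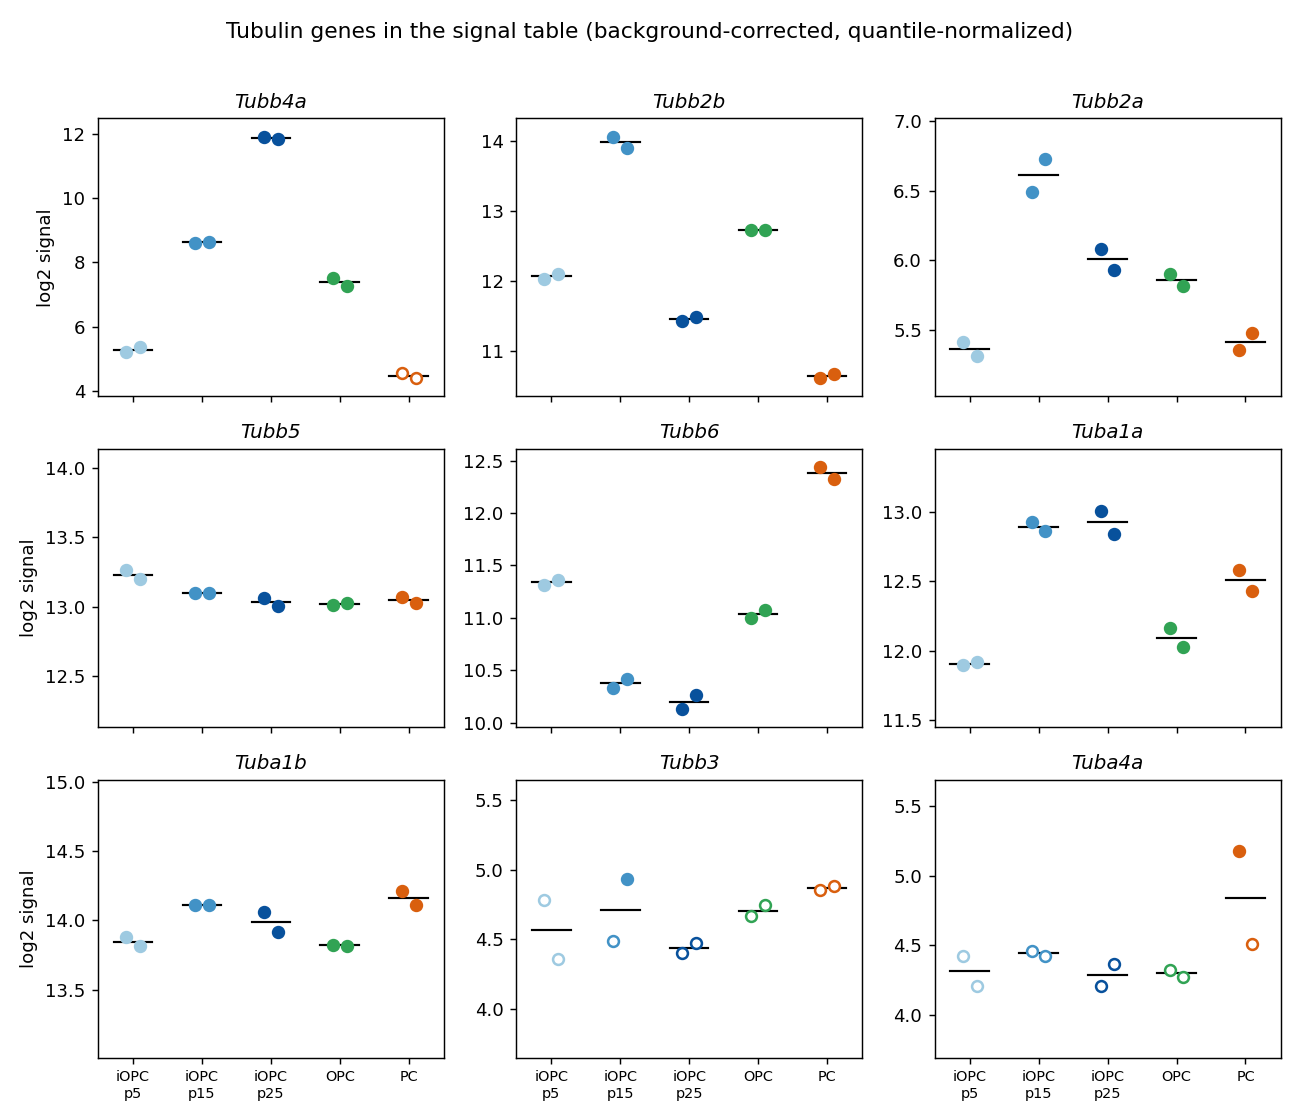
Log2 signal of each tubulin gene on each array of the signal table (points, 2 per group, hollow where detection p was 0.01 or more; bars are group means). Tubb4a reaches 11.92 at iOPC passage 25 against 4.39 in PC, Tubb6 is highest in PC, and Tubb3 and Tuba4a lie at background on nearly all arrays.

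Tubb2b, a beta isotype of migrating and growing neurons, was bright on every array. Its brightest probe stood in the signal table at 12.03 and 12.10 at passage 5, 14.06 and 13.89 at passage 15, 11.43 and 11.48 at passage 25, and 12.72 and 12.72 in OPC, against 10.61 and 10.68 in PC. Every group lay above PC and no 2 groups overlapped. The log2 changes from PC were 1.42 at passage 5, 3.33 at passage 15, 0.81 at passage 25 and 2.08 in OPC (SE 0.0822, adjusted p at most 7.26e-06). Under median scaling the passage 25 change was 0.42. The order was passage 15, OPC, passage 5, passage 25 and PC, with each neighbouring pair called.

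Tubb2b in the value table stood at 13.76 and 13.77 at passage 5, 13.82 and 14.04 at passage 15, 14.01 and 14 at passage 25, and 14.09 and 14.08 in OPC, against 11.15 and 11.09 in PC. At this brightest probe the 4 groups other than PC lay between 13.76 and 14.09, and none of the comparisons among them was called. Dimmer probes differed there from OPC in a separate limma fit of all 14539 passing probes, with adjustment over those probes. ILMN_2588051 was called lower at passage 5 (-1.71, adjusted p 0.00343) and passage 25 (-1.43, adjusted p 0.00817), and ILMN_2825574 at passage 5 (-1.31, adjusted p 0.00339). Of all probes in that fit, 6463 were called against OPC at passage 5 and 6327 at passage 25, in either direction. The log2 changes of the brightest probe from PC were 2.64, 2.81 and 2.89 at passages 5, 15 and 25 and 2.97 in OPC (SE 0.139, adjusted p at most 3.46e-06).

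Tubb2b had 6 probes, of which 5 passed the filter and ILMN_1229800 was detected on 0 arrays. Against PC, all 5 were called higher in each of the 4 comparisons of the signal table, by the fit of all passing probes. That fit called 9257, 10390 and 10184 of its 14539 probes at passages 5, 15 and 25 and 9529 in OPC, in either direction. The log2 changes of the 5 Tubb2b probes ran from 0.64 to 1.42 at passage 5, 2.97 to 4.16 at passage 15, 0.45 to 0.81 at passage 25 and 1.5 to 2.08 in OPC. The brightest probe, ILMN_1377919, reached up to 88.9% of the highest signal on its array and changed by 3.33 at passage 15. The 3 dimmer probes ILMN_1221835, ILMN_2825574 and ILMN_2598715 changed by 4.16, 4.15 and 3.95 there. At ILMN_1221835 the raw signals of passage 25 (162 and 152) overlapped those of PC (172 and 154), as did those at ILMN_2825574 (195 and 189, against 199 and 194 in PC). At ILMN_2598715 they lay below PC (135 and 125, against 137 and 140). For these 3 of the 5 probes the call at passage 25 comes after background correction and normalization.

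Of the 5 Tubb2b probes, 3 were by the value table called higher than PC at passage 5, 4 at passage 15, 3 at passage 25 and 5 in OPC. The fit of all 14539 passing probes called 7235, 7032 and 7057 at these passages and 7584 in OPC, in either direction. In the value table the 2 passage 5 arrays were apart at the dimmer Tubb2b probes. ILMN_1221835 read 4.17 on replicate 1 and 10.03 on replicate 2, and ILMN_2598715 read 4.10 and 9.07, whereas ILMN_1377919 read 13.76 and 13.77. With the mean of the 5 probes in place of the brightest, the passage 5 change was 1.75 (adjusted p 0.0539) and no longer called.

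**Figure D2:**
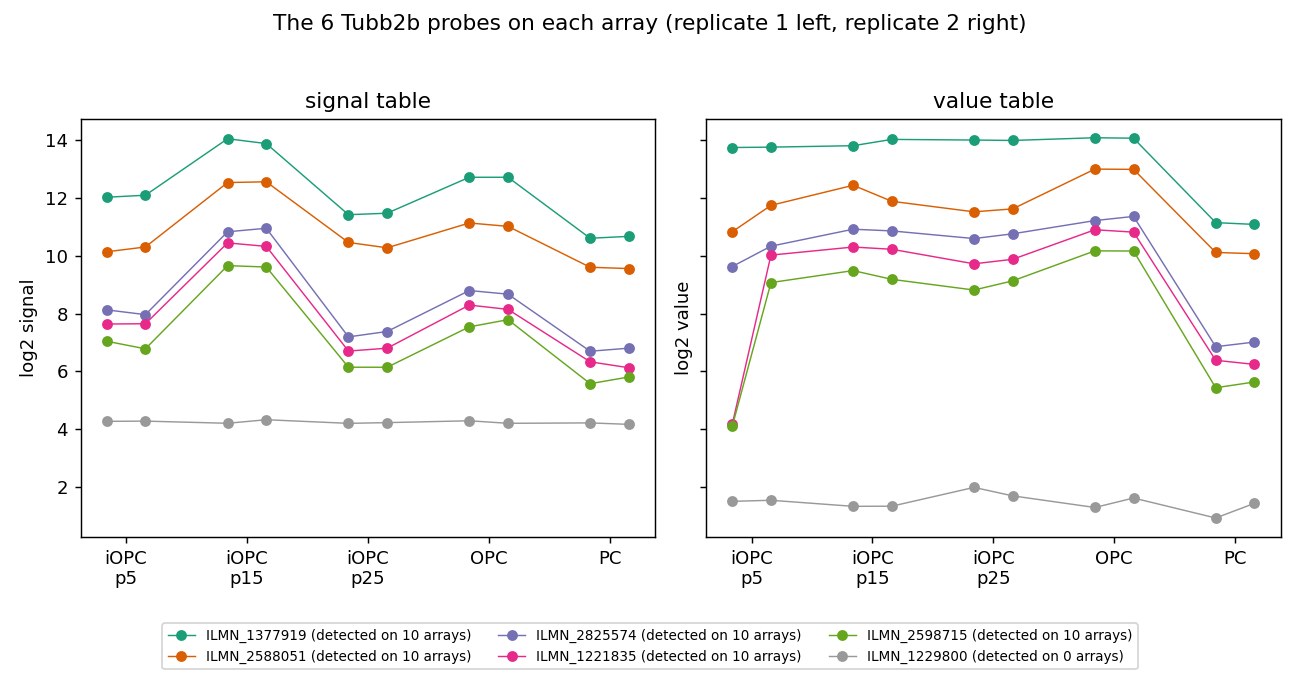
Log2 level of the 6 Tubb2b probes on each array, with the signal table on the left and the value table on the right (replicate 1 left of replicate 2 in each group). The 5 detected probes are highest at passage 15 in the signal table, and in the value table ILMN_1221835 and ILMN_2598715 drop to 4.17 and 4.10 on passage 5 replicate 1.

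As a list, neuronal markers had their highest summed signal at passage 15 and their highest mean log2 value in OPC, the groups where the brightest Tubb2b probe was highest. In the value table that probe was not called different between OPC and any passage. Single markers departed from the order of the list: Gad1 averaged 8.57 at passage 5 and 4.99 at passage 15 in the signal table, and Syt1 averaged 6.81 at passage 5 and 6.13 in OPC in the value table. Of 14 neuronal genes, 4 were detected on each passage 5 array, 9 at passage 15, 2 at passage 25 and 4 to 5 in OPC, against 0 in PC. Their summed signal was 7215 to 7617 at passage 15 and 1309 to 1903 on the arrays of the other groups, PC included. Dcx, a microtubule-binding protein of young neurons, averaged 8.35 log2 units at passage 15, against 4.41 in PC, in the signal table. In the value table Dcx averaged 2.16 at passage 15 and 8.39 in OPC, against 2.32 in PC. Rbfox3 and Snap25, which mark mature neurons, were detected on 0 arrays. The mean log2 value of the 14 genes in the value table was 5.51 to 5.57 in OPC and 2.73 to 3.2 across the iOPC passages, against 2.34 to 2.36 in PC. Astrocyte markers moved likewise as a list. Their summed signal was 6971 to 6993 at passage 15 and 577 to 1021 on the arrays of the other groups, and their mean log2 value was 7.29 to 7.45 in OPC and 2.82 to 3.67 elsewhere, PC included. Gfap departed from this. In the signal table it averaged 4.50 at passage 15, where it was not detected, 7.42 at passage 25 and 6.69 in OPC. In the value table it averaged 2.09 in OPC and 2.72 at passage 5. Aqp4, Aldh1l1, Slc1a2 and Slc1a3 were highest at passage 15 in the signal table and in OPC in the value table. The OPC markers summed to 26898 to 28611 at passage 15 and 5154 to 8736 on the other iOPC and the OPC arrays, against 1265 to 1372 in PC. Their mean log2 value was 8.74 to 9.92 at the passages and 11.24 to 11.25 in OPC, against 3.66 to 3.77 in PC. Cspg4 and Gpr17 departed from the list. Cspg4 averaged 8.82 at passage 15 in the signal table, against 10.03 at passage 5. In the value table Cspg4 averaged 9.30 in OPC, against 10.36 at passage 15. Gpr17 averaged 11.36 at passage 15 and 11.91 at passage 25 in the signal table. In the value table Gpr17 averaged 11.70 in OPC and 12.49 at passage 5. Pdgfra, Olig1, Olig2 and Nkx2-2 were highest at passage 15 in the signal table and in OPC in the value table. The part of these 3 lists in the Tubb2b result was not tested.

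Tubb2a, which lies next to Tubb2b on chromosome 13 and encodes a nearly identical protein, was dim, at most 1.08% of the highest signal on its array. In the signal table it stood at 5.41 and 5.31 at passage 5, 6.49 and 6.73 at passage 15, 6.08 and 5.93 at passage 25, and 5.90 and 5.81 in OPC, against 5.35 and 5.47 in PC. Passage 15 was highest, and passage 5 overlapped PC. It was higher than PC by 1.2 at passage 15, 0.59 at passage 25 and 0.45 in OPC (SE 0.101, adjusted p at most 0.00277), and was not called at passage 5 (-0.05, adjusted p 0.683). The raw signals at passage 25, 133 and 119, overlapped the 130 and 129 of PC. Without background correction the changes were 0.52 at passage 15, 0.23 at passage 25 and 0.17 in OPC, and were called.

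Tubb2a in the value table stood at 4.79 and 3.91 at passage 5, 4.51 and 4.91 at passage 15, 4.92 and 4.73 at passage 25, and 4.49 and 5.01 in OPC, against 2.06 and 3.40 in PC. It was called higher by 1.62, 1.98 and 2.09 at passages 5, 15 and 25 and by 2.02 in OPC (SE 0.467, adjusted p at most 0.0202). Passage 5 lost its call without iOPC passage 5 replicate 1 (1.17, adjusted p 0.0991) and without PC replicate 1 (0.94, adjusted p 0.114), and passage 15 without its own replicate 2 (1.78, adjusted p 0.0554). Without PC replicate 1 the changes were 1.31 at passage 15 and 1.34 in OPC. Tubb2a and Tubb2b correlated at r = 0.755 over the 10 arrays of the signal table and 0.886 in the value table, a description in which the arrays of a group share a cell type. Probe sequences were not used here, so whether a Tubb2a probe also reads Tubb2b RNA was not tested.

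Tubb6, a widely expressed beta isotype that is scarce in brain, was highest in pericytes. In the signal table it stood at 11.32 and 11.36 at passage 5, 10.33 and 10.42 at passage 15, 10.13 and 10.26 at passage 25, and 11 and 11.07 in OPC, against 12.44 and 12.32 in PC. Every other group lay below PC without overlap. Tubb6 fell by 1.04 at passage 5, by 2.00 at passage 15, by 2.18 at passage 25 and by 1.35 in OPC (SE 0.0841, adjusted p at most 1.52e-06). Passages 15 and 25 were not called different (-0.18, adjusted p 0.0833).

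Tubb6 in the value table stood at 11 and 10.95 at passage 5, 11.37 and 11.54 at passage 15, 11.43 and 11.16 at passage 25, and 10.41 and 10.22 in OPC, against 12.49 and 12.44 in PC. It fell by 1.49, 1.01 and 1.17 at passages 5, 15 and 25 and by 2.15 in OPC (SE 0.160, adjusted p at most 0.00115). No pair of passages was called different. OPC was the lowest group in the value table, and passages 15 and 25 the lowest in the signal table.

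Tubb5, the broadly expressed beta isotype of dividing cells, was bright on every array. In the signal table it stood at 13.26 and 13.20 at passage 5, 13.10 and 13.10 at passage 15, 13.06 and 13.01 at passage 25, and 13.02 and 13.02 in OPC, against 13.07 and 13.02 in PC. Its whole range over the 10 arrays was 0.26 log2 units. The change at passage 5 was called (0.19, SE 0.0718, adjusted p 0.0422), but kept its call in 7 of 22 alternatives, whose adjusted p ran from 0.00396 to 0.231. At passage 15, at passage 25 and in OPC the changes were 0.05, -0.01 and -0.03, with 95% intervals of -0.11 to 0.21, -0.17 to 0.15 and -0.19 to 0.13. Median scaling in place of quantile normalization turned the signs at passage 5 (-0.16, adjusted p 0.231) and passage 15 (-0.28, adjusted p 0.0330). It also gave called decreases at passage 25 (-0.58, adjusted p 1.84e-04) and in OPC (-0.36, adjusted p 0.0086), so the direction and calls of Tubb5 in the signal table depend on this choice.

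Tubb5 in the value table stood at 13.94 and 14.03 at passage 5, 13.96 and 14.11 at passage 15, 13.93 and 13.93 at passage 25, and 13.52 and 13.41 in OPC, against 13.40 and 13.35 in PC. The iOPC arrays all lay above OPC and PC. Tubb5 was higher than PC by 0.61, 0.66 and 0.56 at passages 5, 15 and 25 (SE 0.136, adjusted p at most 0.0101), and not called in OPC (0.09, adjusted p 0.597). Without PC replicate 2 the passage 25 change was 0.53 (adjusted p 0.0599). A further Tubb5 probe, ILMN_1217584, was detected on 0 arrays.

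Tubb3, the class III beta isotype used as a neuronal marker, was at background. Its raw signals ran from 95 to 122, and it was detected on 1 array (passage 15 replicate 2, detection p 0.00627). In the signal table it read 4.78 and 4.36 at passage 5, 4.49 and 4.94 at passage 15, 4.40 and 4.47 at passage 25, and 4.66 and 4.74 in OPC, against 4.85 and 4.88 in PC. In the value table it read 2.14 to 3.61 over all arrays. It did not pass the filter, and tested without one it was called in 0 of the 20 comparisons of both tables (lowest adjusted p 0.0542).

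**Figure D3:**
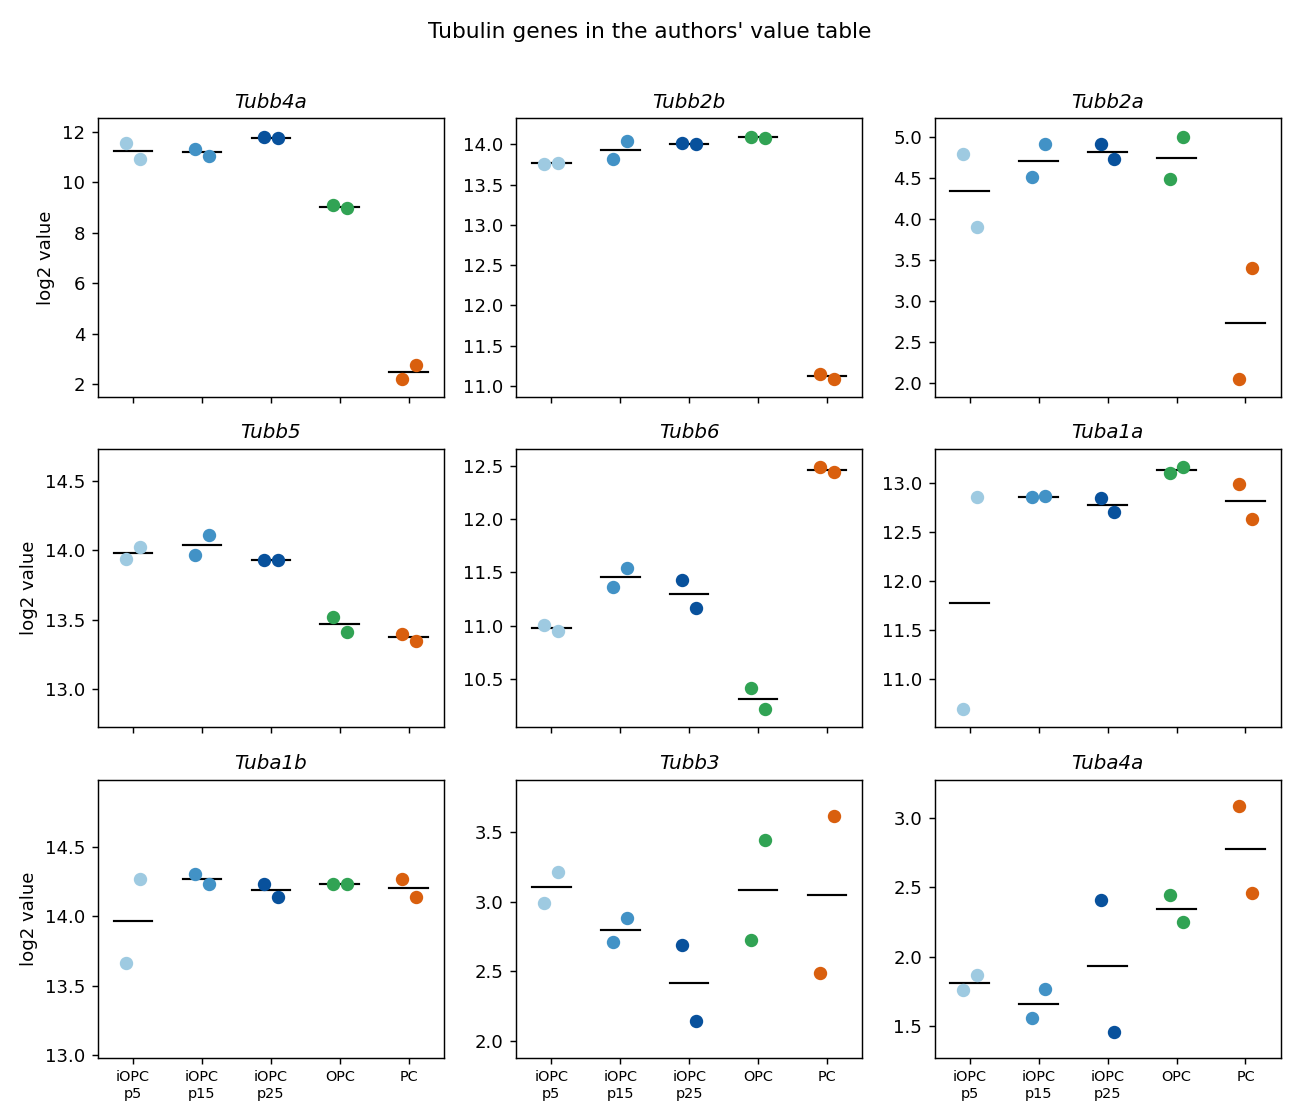
Log2 value of each tubulin gene on each array of the authors' value table (points, 2 per group; bars are group means). Tubb4a, Tubb2b and Tubb2a are lowest in PC and Tubb6 highest there, and at Tuba1a iOPC passage 5 replicate 1 reads 10.69 against 12.85 on replicate 2.

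Of the alpha genes, Tuba1a, the main alpha isotype of neurons after their last division, was called in both directions in the signal table. It stood at 11.89 and 11.92 at passage 5, 12.93 and 12.86 at passage 15, 13.01 and 12.84 at passage 25, and 12.16 and 12.02 in OPC, against 12.58 and 12.43 in PC. Passages 15 and 25 lay above PC, and passage 5 and OPC below it. The changes were -0.60 at passage 5, 0.39 at passage 15, 0.42 at passage 25 and -0.41 in OPC (SE 0.0924, adjusted p at most 0.00329). Under median scaling passage 15 was 0.09 (adjusted p 0.504) and passage 25 was -0.11 (adjusted p 0.385), so neither kept its call and passage 25 turned sign, while passage 5 was -0.94 and OPC -0.73.

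Tuba1a in the value table stood at 10.69 and 12.85 at passage 5, 12.86 and 12.86 at passage 15, 12.84 and 12.70 at passage 25, and 13.09 and 13.16 in OPC, against 12.99 and 12.63 in PC. Passage 5 replicate 1 lay below the other 9 arrays. No comparison with PC was called (changes -1.04, 0.05 and -0.04 at passages 5, 15 and 25 and 0.32 in OPC, SE 0.578). Passage 5 against PC was 0.04 without that replicate and -2.12 without replicate 2 (adjusted p 1.13e-04), so a single array decides it.

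Tuba1b, an alpha isotype found in most cells and the neighbour of Tuba1a on chromosome 15, was bright on every array. Its raw signal was 74.2% to 100% of the highest signal on the array, close to the top of the scale. After normalization of the signals it stood at 13.88 and 13.81 at passage 5, 14.11 and 14.11 at passage 15, 14.06 and 13.91 at passage 25, and 13.83 and 13.81 in OPC, against 14.21 and 14.11 in PC. It was lower at passage 5 (-0.31, adjusted p 0.00581) and in OPC (-0.34, adjusted p 0.00352), with an SE of 0.0807. Passage 15 (-0.05, adjusted p 0.608) overlapped PC and passage 25 (-0.17, adjusted p 0.0755) was not called. In the value table it ran from 13.66 on passage 5 replicate 1 to 14.31, its changes from PC lay between -0.24 and 0.06, and none was called. Without passage 5 replicate 2 the passage 5 change was -0.54 (adjusted p 0.0164).

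Tuba4a, an alpha isotype known from brain, muscle and platelets, was detected on 1 array (PC replicate 1, detection p 0.00125). After normalization of the signals it read 4.42 and 4.20 at passage 5, 4.46 and 4.42 at passage 15, 4.21 and 4.37 at passage 25, and 4.32 and 4.27 in OPC, against 5.18 and 4.51 in PC. Without the filter it was called lower than PC at passage 5 (-0.53, adjusted p 0.0430), at passage 25 (-0.56, adjusted p 0.0310) and in OPC (-0.54, adjusted p 0.0372) in the signal table. The value table did so at passage 15 (-1.11, adjusted p 0.0413). The values of PC were 3.09 and 2.46 there, against 1.56 and 1.77 at passage 15. The replicates of PC lay 0.67 apart in the signal table, more than the size of the changes called there. In the value table they lay 0.63 apart, less than the size of its change at passage 15.

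**Figure D4:**
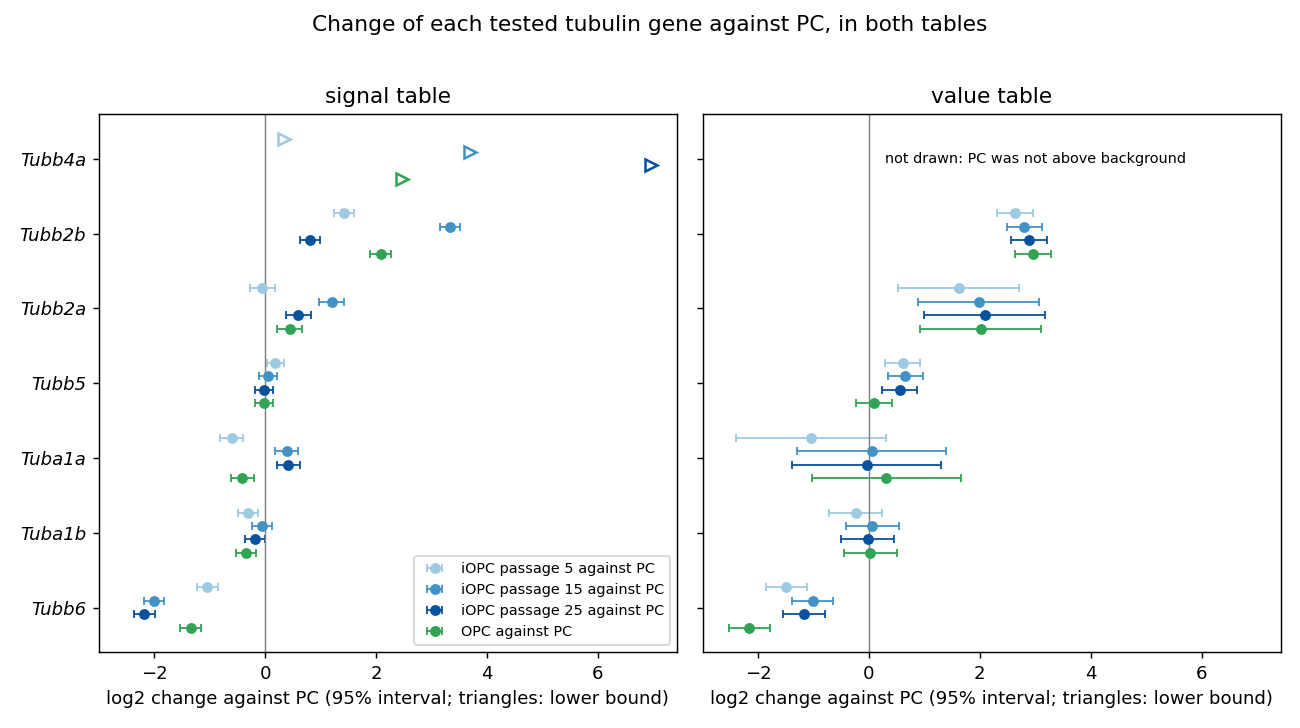
Log2 change against PC of the 7 tested tubulin genes (points; bars are 95% intervals of the fit) at iOPC passages 5, 15 and 25 and in OPC, with the signal table on the left and the value table on the right. Tubb4a is drawn at its lower bound (hollow triangles, signal table only), since PC was not above background. Tubb2b lies right of 0 and Tubb6 left of 0 in all 8 cases.

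Counts over the 7 tested members are set here beside the background, the percentage of all 9778 genes called by the same rule in the same comparison. At passage 5 against PC, by the signal table, 6 were called (background 66.5% of all genes), 3 higher (background 35.8%) and 3 lower (background 30.7%). At passage 15, by the signal table, 5 were called (background 74% of all genes), 4 higher (background 40.3%) and 1 lower (background 33.7%). At passage 25, by the signal table, 5 were called (background 72.4% of all genes), 4 higher (background 36.8%) and 1 lower (background 35.7%). In OPC, by the signal table, 6 were called (background 67.8% of all genes), 3 higher (background 35%) and 3 lower (background 32.8%). At passage 5 against PC, by the value table, 5 were called (background 54.3% of all genes), 4 higher (background 30.2%) and 1 lower (background 24.1%). At passage 15, by the value table, 5 were called (background 53.6% of all genes), 4 higher (background 29%) and 1 lower (background 24.5%). At passage 25, by the value table, 5 were called (background 53.4% of all genes), 4 higher (background 29.1%) and 1 lower (background 24.3%). In OPC, by the value table, 4 were called (background 56.4% of all genes), 3 higher (background 30.6%) and 1 lower (background 25.8%). With so few genes these counts are not read as differing from their backgrounds. The median absolute log2 change of the members against PC was 0.60, 1.2, 0.59 and 0.45 in the signal table at passages 5, 15 and 25 and in OPC, against 0.45, 0.60, 0.55 and 0.46 over all genes. With Tubb4a at its bound the passage 5 median was 0.34 and the others did not move. By the value table it was 1.49, 1.01, 1.17 and 2.02, against 0.78, 0.74, 0.76 and 0.81 over all genes. Called in both tables with the same sign were Tubb2b, Tubb4a and Tubb5 (higher) and Tubb6 (lower) at passage 5, and Tubb2a, Tubb2b and Tubb4a (higher) and Tubb6 (lower) at passage 15, at passage 25 and in OPC.

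Set against primary OPC, the tables differed in direction at several members. Tubb4a at passage 5 was lower than OPC in the signal table (log2 change -2.12, adjusted p 3.15e-07) and higher in the value table (2.20, adjusted p 2.58e-04). It was higher than OPC in both tables at passage 15 (1.23 and 2.14) and passage 25 (4.49 and 2.74). Tubb6 was higher than OPC at passage 5 in both tables (0.30, called in 18 of 21 alternatives, and 0.67, called in 14 of 16). At passage 15 it was lower in the signal table (-0.66, adjusted p 5.08e-05) and higher in the value table (1.14, adjusted p 7.64e-04), and at passage 25 likewise (-0.84, adjusted p 1.47e-05, and 0.98, adjusted p 0.00161).

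Tubb2b was called against OPC at all passages in the signal table (-0.66, 1.25 and -1.27 at passages 5, 15 and 25) and, at its brightest probe, at none in the value table (-0.32, -0.16 and -0.08, adjusted p at least 0.0888). Of its 5 probes, 2 were called lower than OPC at passage 5 and 1 at passage 25 in the value table, and the mean of the 5 gave -2.14 at passage 5 (adjusted p 0.0285). Tubb5 was higher than OPC at all passages in the value table (0.52, 0.57 and 0.46, adjusted p at most 0.0246) and at passage 5 in the signal table (0.21, adjusted p 0.0399). The calls of the value table held in 12 of 16 alternatives at passage 5 (adjusted p up to 0.107), 15 of 17 at passage 15 (up to 0.0803) and 12 of 17 at passage 25 (up to 0.147), and that of the signal table in 10 of 21 (up to 0.169). Tubb2a was called at passages 5 and 15 in the signal table (-0.50 and 0.75), Tuba1a at passages 15 and 25 (0.80 and 0.83), and Tuba1b at passage 15 (0.29). The value table called none of these 3 genes.

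Against OPC at passage 5, the signal table called 5 members (background 39.9% of all genes), 2 higher (background 21.1%) and 3 lower (background 18.7%). Against OPC at passage 15, the signal table called 6 members (background 67.1% of all genes), 5 higher (background 36.2%) and 1 lower (background 30.9%). Against OPC at passage 25, the signal table called 4 members (background 55.7% of all genes), 2 higher (background 26.8%) and 2 lower (background 28.9%). Against OPC at passage 5, the value table called 3 members (background 49.1% of all genes), 3 higher (background 25.8%) and 0 lower (background 23.3%). Against OPC at passage 15, the value table called 3 members (background 48.3% of all genes), 3 higher (background 24.5%) and 0 lower (background 23.8%). Against OPC at passage 25, the value table called 3 members (background 48.2% of all genes), 3 higher (background 24.7%) and 0 lower (background 23.5%). At passage 5 the signal table's count was 3 without iOPC passage 5 replicate 2 or without OPC replicate 1. The value table's count was 5 without iOPC passage 5 replicate 2 and 1 without OPC replicate 2.

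The columns that matched across the tables under unlike headings can be read side by side. Under the heading iOPC passage 15 the signal table gave Tubb4a 8.61 and 8.64, Tubb2b 14.06 and 13.89 and Tubb6 10.33 and 10.42. Under the heading OPC the value table gave Tubb4a 9.12 and 8.97, Tubb2b 14.09 and 14.08 and Tubb6 10.41 and 10.22. The list levels of neuronal, astrocyte and OPC markers were highest under the same pair of headings.

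Between passages, the tables differed in how many tubulin genes moved. For the signal table, passage 25 against passage 5 gave 6 called members (background 55.8% of all genes), 3 higher (background 26.4%) and 3 lower (background 29.4%). Tubb4a rose by 6.61 (11.92 and 11.85 at passage 25, against 5.22 and 5.35 at passage 5), Tuba1a by 1.02 and Tubb2a by 0.65. Tubb6 fell by 1.14, Tubb2b fell by 0.61 and Tubb5 fell by 0.20 (adjusted p 0.0377, with adjusted p up to 0.154 when single arrays were left out). Tuba1b was not called (0.14, adjusted p 0.167). Of the 5 Tubb2b probes, 4 were called lower and ILMN_2588051 was not called (0.15). The fit of all 14539 passing probes called 7804 there, in either direction.

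Steps between neighbouring passages were added after the data had been seen. From the signal table, passage 15 against passage 5 gave 6 called members (background 62.8% of all genes), 5 higher (background 32.6%) and 1 lower (background 30.2%). There Tubb4a was higher by 3.34, Tubb2b by 1.91, Tubb2a by 1.25, Tuba1a by 0.99 and Tuba1b by 0.27, and Tubb6 was lower (-0.96). Tuba1b lost its call in 3 of the 10 refits that left out an array (adjusted p up to 0.0798). Passage 25 against passage 15 gave 3 called members (background 71.8% of all genes), 1 higher (background 33.5%) and 2 lower (background 38.3%): Tubb4a was higher by 3.26, Tubb2b lower (-2.52) and Tubb2a lower (-0.60). Tubb4a thus rose at each step, whereas Tubb2b and Tubb2a peaked at passage 15.

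For the value table limma called 0 members between passages 25 and 5 (background 8.91% of all genes, 3.35% higher and 5.55% lower), 0 between passages 15 and 5 (background 10.3% of all genes, 3.65% higher and 6.67% lower) and 0 between passages 25 and 15 (background 0.123% of all genes, 0.112% higher and 0.0102% lower). There Tubb4a changed by 0.54 at passage 25 against passage 5 (95% interval -0.05 to 1.13, adjusted p 0.227), an interval that does not reach the 6.61 of the signal table. At an unadjusted limma p under 0.05 there were 0, 1 (Tubb6) and 1 (Tubb4a) members in these comparisons, and limma with a trend and robust spread called 1 member between passages 15 and 5.

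By the naming rule, the 2 genes with the highest Pearson r to each tested member over the 10 arrays of the signal table were taken, and their r in the value table is given beside it. Arrays of a group share a cell type, so these values are descriptions. Tubb2b was most like Zfp521, a zinc finger transcription factor (r 0.995 in the signal table and 0.994 in the value table), and Marcks, a membrane-bound actin regulator (0.994 and 0.980). Tubb4a was most like Slc22a23, a transporter family member (0.982 and 0.973), and Pfkfb2, an enzyme of glycolysis control (0.980 and 0.211).

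For Tubb6 these were Pkn3, a protein kinase (0.993 and 0.606), and Fkbp11, a folding enzyme of the secretory pathway (0.991 and 0.985). For Tubb5 they were Oard1 (0.937 and 0.929) and Mlf1 (0.930 and 0.573). For Tubb2a they were Ppp1r9a, an actin-binding scaffold of neurons (0.974 and 0.797), and Fam171a2 (0.970 and 0.118). For Tuba1a they were Rap1gap2 (0.983 and -0.193) and Spire2 (0.970 and 0.396), and for Tuba1b Pip5k1b (0.971 and 0.131) and Get3 (0.971 and 0.658). Of the 14 genes, Zfp521, Marcks, Slc22a23, Fkbp11 and Oard1 kept an r above 0.9 in the value table.

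Other microtubule genes were read from 4 lists, against PC. The background for their counts, as for the members, is the percentage of all genes called: 35.8% higher and 30.7% lower at passage 5, 40.3% and 33.7% at passage 15, 36.8% and 35.7% at passage 25, and 35% and 32.8% in OPC in the signal table. For the value table it is 30.2% and 24.1%, 29% and 24.5%, 29.1% and 24.3%, and 30.6% and 25.8%. Of 11 other tubulin genes 7 were tested. By the signal table, 1 was higher and 3 lower at passage 5, 3 and 3 at passage 15, 2 and 1 at passage 25, and 0 and 4 in OPC, and by the value table there were 1 and 3, 2 and 1, 2 and 1, and 1 and 2. With 7 genes these counts are not read against the background. Tubb4b, a broadly expressed relative of Tubb4a, read 11.76 and 11.71 at passage 5, 12.21 and 12.24 at passage 15, 12.99 and 12.94 at passage 25, and 11.33 and 11.25 in OPC, against 12.67 and 12.59 in PC in the signal table. It was lower than PC at passage 5 (-0.90 in the signal table and -1.14 in the value table) and at passage 15 (-0.40 and -0.64). At passage 25 it was higher in the signal table (0.33) and lower in the value table (-1.24).

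Of the remaining tested tubulins, Tuba3a and Tuba3b, whose near-identical sequences leave a probe's gene uncertain, were lower than PC at passage 5 in both tables (Tuba3a -1.26 in the signal table and -0.70 in the value table, Tuba3b -0.66 and -0.61). Tube1, epsilon-tubulin of centrioles, was higher at passage 5 (0.73 and 1.62) and passage 15 (0.62 and 1.54). Tubg1, gamma-tubulin of the nucleating ring, was higher at passage 15 (0.22 and 1.5). Tubd1, delta-tubulin, was called at passages 15 and 25 of the signal table (0.36 and 0.35) and in none of the value table. Tubg2, a further gamma-tubulin, was called lower at passage 15 in the signal table (-0.76) and in OPC in the value table (-0.75).

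Of 21 genes on the tubulin folding list 18 were tested. It holds tubulin cofactors, the CCT chaperonin, prefoldin and also Ttc5, which is not a folding factor. The signal table had 1 higher and 10 lower at passage 5, 4 and 2 at passage 15, 2 and 12 at passage 25, and 2 and 11 in OPC, beside a background of 30.7%, 33.7%, 35.7% and 32.8% lower. The value table had 2 higher and 9 lower at passage 5, 2 and 3 at passage 15, 3 and 4 at passage 25, and 4 and 1 in OPC, beside 24.1%, 24.5%, 24.3% and 25.8% lower. The median log2 change of the list at passage 25 was -0.52 in the signal table and -0.30 in the value table, against 0.01 and 0.09 over all genes. The genes named from this list and those below were picked for a large passage 25 change from PC, called alike in both tables. Their calls at passage 25 against PC were thus fixed by the choice. Cct4, a chaperonin subunit, was lower at passage 25 (-1.09 and -0.56), as was Cct6a (-0.54 and -0.53), while Ttc5, which takes part in the decay of tubulin messenger RNA, was higher (0.41 and 0.97).

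Of 29 genes of microtubule-associated proteins 25 were tested. The signal table had 7 higher and 9 lower at passage 5, 18 and 4 at passage 15, 12 and 8 at passage 25, and 8 and 9 in OPC. The value table had 6 higher and 6 lower at passage 5, 8 and 8 at passage 15, 9 and 9 at passage 25, and 15 and 3 in OPC. The background of higher genes ran from 35% to 40.3% in the signal table and from 29% to 30.6% in the value table. It was highest at passage 15 of the signal table and in OPC of the value table, where 18 and 15 of the 25 listed genes were higher. Whether the list departs from its background was not tested.

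Tppp, a tubulin polymerization protein of oligodendrocytes, followed the order of Tubb4a except at passage 15. After normalization of the signals it read 8.05 and 8.06 at passage 5, 6.49 and 6.70 at passage 15, 11.53 and 11.41 at passage 25, and 8.63 and 8.67 in OPC, against 4.31 and 4.31 in PC, where it was not above background. It was at least 8.66-fold higher at passage 5, at least 3.15-fold at passage 15, at least 92.3-fold at passage 25 and at least 13.1-fold in OPC. Tppp in the value table read 8.70 and 8.86 at passage 5, 9.11 and 9.01 at passage 15, 9.94 and 9.58 at passage 25, and 6.76 and 6.69 in OPC, against 2.38 and 1.90 in PC, each group being called higher than PC (adjusted p at most 9.11e-07).

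Mapt, which encodes tau, read 7.66 and 7.67 at passage 5, 9.21 and 9.26 at passage 15, 10.55 and 10.66 at passage 25, and 7.87 and 8.04 in OPC, against 4.36 and 4.45 in PC in the signal table. It was not above background in PC, and was at least 6.61-fold higher at passage 5, at least 19.7-fold at passage 15, at least 50.8-fold at passage 25 and at least 8.09-fold in OPC. Mapt in the value table read 9.53 to 10.16 on the iOPC arrays and 9.71 and 9.96 in OPC, against 1.81 and 2.00 in PC, and each group was called higher than PC.

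Dpysl3, a tubulin-binding protein of growing axons, went in different directions. It changed from PC in the signal table by -2.80 at passage 5, 1.69 at passage 15, -4.06 at passage 25 and -2.81 in OPC, and in the value table by -1.32, -3.09 and -3.85 at the passages and 1.54 in OPC. All of these were called (adjusted p at most 1.24e-04). It was higher than PC under the heading passage 15 in the signal table and under OPC in the value table.

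Of 25 tubulin-modifying and severing enzymes 15 were tested. The signal table had 7 higher and 3 lower at passage 5, 6 and 2 at passage 15, 8 and 4 at passage 25, and 7 and 6 in OPC. The value table had 4 higher and 0 lower at passage 5, 5 and 1 at passage 15, 5 and 0 at passage 25, and 6 and 1 in OPC. The background of higher genes was 35% to 40.3% in the signal table and 29% to 30.6% in the value table. Atat1, which acetylates alpha-tubulin, was not above background in PC and was at least 6.48-fold higher at passage 5, at least 18-fold at passage 15, at least 11.7-fold at passage 25 and at least 7.45-fold in OPC. By the value table Atat1 read 6.96 to 7.47 on the iOPC arrays and 9.49 and 9.39 in OPC, against 3.17 and 4.84 in PC, and each group was called higher than PC.

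Sirt2, a tubulin deacetylase abundant in myelin, read 8.84 and 8.78 at passage 5, 9.13 and 9.19 at passage 15, 11.86 and 11.78 at passage 25, and 9.53 and 9.62 in OPC, against 8.12 and 8.14 in PC in the signal table. Its changes from PC were 0.68, 1.04 and 3.69 at the passages and 1.45 in OPC in the signal table, and 1.65, 1.89, 2.51 and 1.12 in the value table, all called. Fign, which severs microtubules, was higher by 1.95, 2.79 and 1.60 at the passages and 2.56 in OPC in the signal table, and by 3.74, 3.30, 3.30 and 3.46 in the value table.

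**Figure D5:**
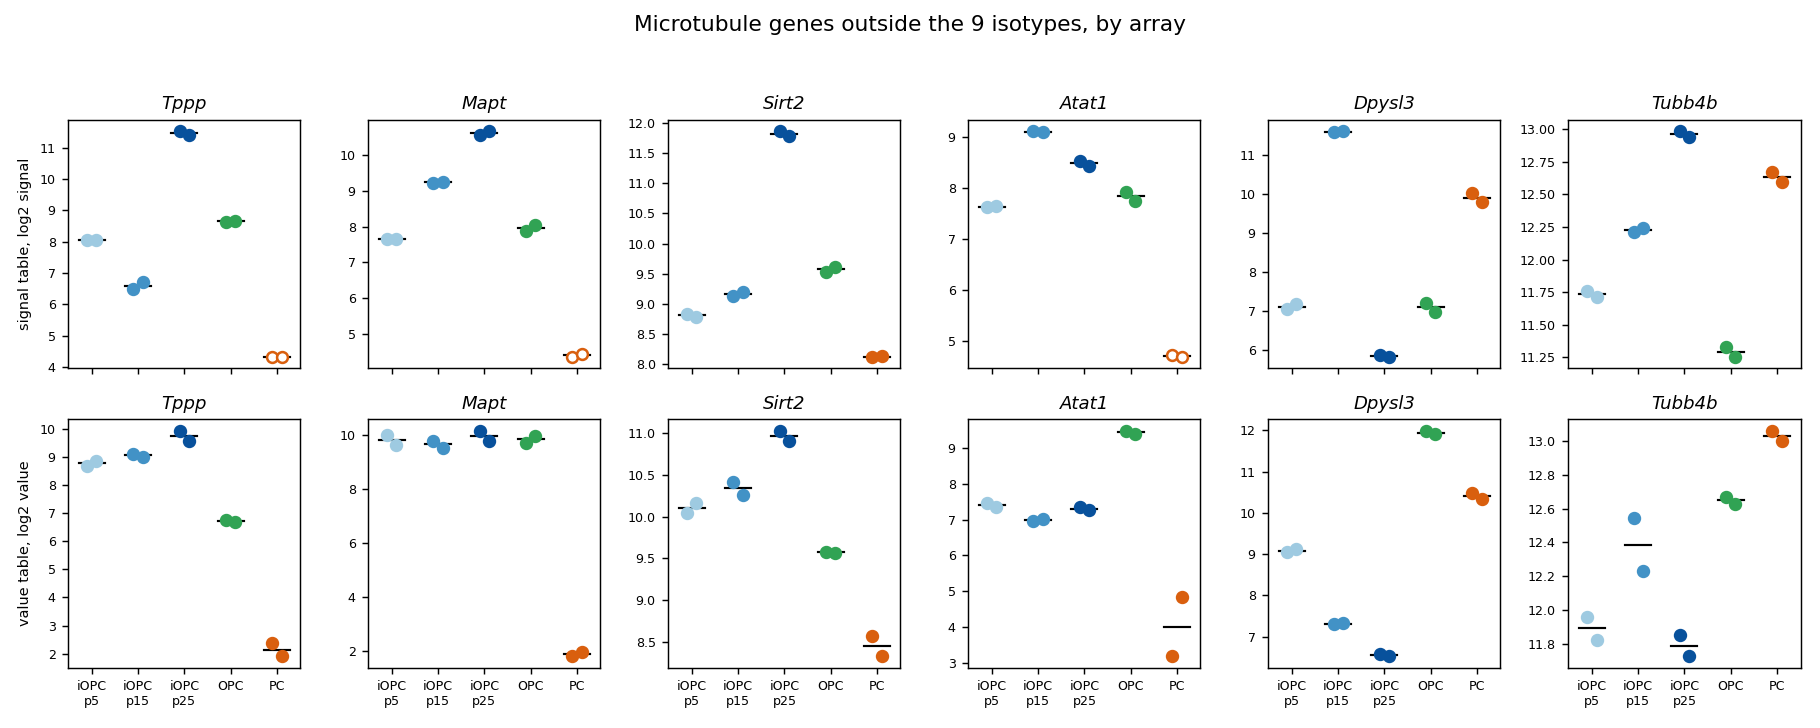
Log2 level of 6 microtubule genes outside the 9 members on each array, with the signal table above (hollow points have a detection p of 0.01 or more) and the value table below; bars are group means. Tppp, Mapt, Sirt2 and Atat1 are lowest in PC in both tables, while Dpysl3 peaks at iOPC passage 15 in the signal table and in OPC in the value table.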

How the data were processed

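RNA of 10 samples was hybridised to Illumina mouse bead arrays. Sample titles gave the groups. The signal table holds intensity values and a detection p-value per probe as deposited, not normalized per the file headers. The value table holds log2 values as deposited, normalized by the authors in a way not given in the sources used here. Tools listed in the submitters' processing notes, without their roles, were BeadStudio 3.2, lumi and RMA. The labels also mention a further amplification kit for sorted transplanted cells and do not tell which arrays, if any, used it.

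Intensities were background-corrected with neqc (offset 16, the steps of the detection p imply 798 negative controls), then quantile-normalized on a log2 scale, and the value table was used as it stands. Of 25697 probes, 23978 had 1 symbol and 1719 had none (23962 were named through their current Entrez identifier). Probes with a detection p under 0.01 on at least 2 arrays were kept (14539, of which 13680 had a symbol), and the brightest stood for each of 9778 genes (2740 had several). limma 3.58.1 (R 4.3.3) fitted a mean per group over all 10 arrays (5 residual degrees of freedom), with Benjamini-Hochberg adjustment over 9778 genes. Single Tubb2b probes were read from a second such fit of all 14539 passing probes, adjusted over those probes. Of 10 comparisons, those between neighbouring passages were added after the data had been seen. The members and gene lists were chosen with earlier results of these data known. Named genes were all members, all other tested tubulins, the 3 genes of each further list with the largest change at passage 25 against PC among those called alike in both tables, and the 2 genes most alike to each member. Cct4, Cct6a and Ttc5 (folding list), Tppp, Mapt and Dpysl3 (associated proteins) and Atat1, Sirt2 and Fign (enzymes) came from that rule. Figures were drawn with matplotlib 3.10.9 under Python 3.11.15. The fit was tested on simulated data. Replicate numbers did not pair the samples: deviations of same-numbered arrays correlated at -0.05 to 0.127 in the signal table and -0.08 to 0.0962 in the value table. Alternatives covered background correction, normalization, the filter, the probe rule, the fit and each array left out.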

Additional observations from a re-analysis of the deposited data

Results flagged for a closer look

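The change against PC differed between iOPC passages 25 and 5 for 6 members in the signal table (background 55.8% of all genes), by limma's test of the difference itself. The differences, passage 25 minus passage 5 in log2 units, were 6.61 for Tubb4a, 1.02 for Tuba1a, 0.65 for Tubb2a, -0.20 for Tubb5, -0.61 for Tubb2b and -1.14 for Tubb6. Both changes share the PC arrays, so PC cancels out. The test is thus the comparison of passages 25 and 5 given above, not a further result. In the value table none of the 7 tested members differed between these passages by the same test (adjusted p 0.227 to 0.830, background 8.91% of all genes).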

How the results depend on the processing

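In the signal table, 1407 of the gene results under alternatives kept their side of the threshold (11 of them uncalled and turned in sign), 19 gained a call, 45 lost one and 3 turned sign with a call before or after. Of those in the value table, 1173 kept their side (26 uncalled and turned), 11 gained a call and 20 lost one. The 3 that turned were under median scaling in the signal table: Tuba1a at passage 25 (-0.11, adjusted p 0.385), Tubb5 at passage 15 (-0.28, adjusted p 0.0330) and Tubb5 at passage 5 (-0.16, adjusted p 0.231), all against PC. That scaling moved the median of all genes by -0.26 for passage 25 against 15, -0.21 for passage 25 against PC, and -0.18 for passage 25 against OPC or passage 5. It gave 5 called members for passage 25 against 15 (3 with quantile normalization) and 3 for passage 5 against OPC (5). In the value table, fitting only the groups compared gave 1 called member for passage 5 against OPC (3 in the full fit) and 3 for passage 5 against PC (5), and a trend with robust spread gave 1 for passage 15 against 5 (0). With single arrays left out, the value table's counts ran from 0 to 2 for passage 15 against 5, 0 to 2 for passage 25 against 5, 1 to 5 for passage 5 against OPC and 4 to 7 for passage 5 against PC, and the signal table's from 3 to 5 for passage 5 against OPC. The cause was not tested. Without background correction Tubb4a kept its calls against PC, whose level was not above background, but its changes were smaller at passages 5 and 15 and in OPC. The replicate block took the call from Tubb5 at passage 5 against PC (adjusted p 0.0520) and against OPC (adjusted p 0.0501) in the signal table, which lowered the called members to 5 and 4 (6 and 5 without the block). Over all genes, the value table's called genes ranged from 32 to 2622 (871 in the full fit) for passage 25 against 5, 40 to 3004 (1009) for passage 15 against 5 and 0 to 65 (12) for passage 25 against 15. Signal close to background limits Tubb3, Tuba4a, Tubb2a and the PC level of Tubb4a, and signal near the top of the scale limits Tuba1b and Tubb2b.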
